A study of Mus musculus with 8 samples.

Results

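The miRNAs described here are those embedded in the mouse Hox clusters under the names mmu-miR-10a, mmu-miR-10b, mmu-miR-196a and mmu-miR-196b, written here without the species prefix. They were chosen by name, taking every row of the deposited table that carries one of these names with any copy number or arm, which gave 8 of the 1099 mature miRNAs listed. Libraries were made from the KH2-DGCR8 line of mouse embryonic stem cells (ESCs), in which doxycycline is used to overexpress DGCR8, at days 0, 1, 2 and 4 of embryoid body (EB) differentiation. EBs are clusters of cells that begin to differentiate in suspension. On each day there was 1 library with doxycycline (+ Dox) and 1 with no Dox, so every value below is 1 library and no condition was replicated. All 8 libraries come from this line. Cells that cannot overexpress DGCR8 were not analysed here, so an effect of Dox itself and one of DGCR8 cannot be told apart. The labels do not say how long Dox was given or whether the line is 1 clone.

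DGCR8 is the partner of DROSHA in the Microprocessor, the complex that cuts a hairpin out of a primary miRNA transcript. Dicer then frees a duplex of a 5p and a 3p strand, of which one is usually kept and the other, the passenger, is mostly lost. The study asked how more DGCR8 acts on miRNA production. miR-10 and miR-196 are transcribed from within the Hox clusters, whose genes set identity along the head-to-tail axis and are largely silent in pluripotent cells. Both families repress Hox messenger RNAs, and miR-196 is known for directing the cleavage of Hoxb8 messenger RNA. In whole EBs a lower level may mean fewer cells that make a miRNA or less of it in each cell, which cannot be told apart.

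The mature 5p sequences below are RefSeq's (GRCm38.p6, the mm10 build), shown because each family is 2 miRNAs that are nearly the same molecule. Capitals mark the seed, bases 2 to 8 from the 5′ end, which pairs with targets.
miR-10a-5p: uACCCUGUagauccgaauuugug
miR-10b-5p: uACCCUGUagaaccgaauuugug
miR-196a-5p: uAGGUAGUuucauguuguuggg
miR-196b-5p: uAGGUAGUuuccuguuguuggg
miR-100-5p: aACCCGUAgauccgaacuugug
let-7a-5p: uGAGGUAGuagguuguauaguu

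miR-10a-5p and miR-10b-5p share their seed with each other and with no other miRNA of the table that RefSeq lists, and differ at 1 of 23 bases (U12A, miR-10a's base first, counted from the 5′ end). miR-196a-5p and miR-196b-5p likewise share a seed of their own and differ at 1 of 22 bases (A12C, miR-196a's base first). The last pair of lines shows their nearest relatives. miR-100-5p, of the wider miR-10 family, shares an 11-base run with miR-10a-5p from base 6 of its own sequence and base 7 of miR-10a's, so that the seeds differ. let-7a-5p, the main let-7 of differentiated tissues, holds the 7 bases of the miR-196 seed shifted by 1 position.

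Reads of such near-identical copies could not be separated in the deposited values. miR-10b-5p stood at between 95% and 101% of the reads of miR-10a-5p in the 8 libraries, a difference of at most 8 reads. miR-196b-5p stood at between 89.9% and 103% of miR-196a-5p, a difference of at most 44 reads. This pair was less equal: miR-196a-5p exceeded miR-196b-5p by 25 to 44 reads in the Dox libraries, and by -7 to 19 without Dox. Each pair is therefore treated as 1 signal below, given by its a member, and a pair of calls in it counts as 1 observation. miR-196a-5p is also made from both Mir196a-1 and Mir196a-2, whose 5p sequences are the same.

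The passenger strands differ more, and are shown because they are the only members that tell the loci apart. Capitals again mark bases 2 to 8.
miR-196a-1-3p: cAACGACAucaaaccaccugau
miR-196a-2-3p: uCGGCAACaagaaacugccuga
miR-196b-3p: uCGACAGCacgacacugccuuc
miR-10a-3p: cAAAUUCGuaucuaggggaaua
Counted base by base from the 5′ end, with no alignment, miR-196a-1-3p matches miR-196a-2-3p and miR-196b-3p at 5 of 22 positions each. A shifted alignment matches more bases, so this count understates their likeness. By the same count miR-196a-2-3p matches miR-196b-3p at 16 of 22 positions, and miR-10a-3p matches miR-10b-3p at 19 of 22. miR-10b-3p was not analysed here, so the miR-10b locus has no member of its own in the data.

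All 5 hairpins lie within Hox clusters and on the strand of the neighbouring Hox genes (GENCODE M21, mm10). Mir196a-1 (chr11:96265164-96265265, plus strand) overlaps no annotated gene and starts 6.29 kb before Hoxb9. Mir10a lies in the same HoxB cluster (chr11:96317165-96317274, plus strand), overlaps no annotated gene, and starts 1.1 kb before Hoxb4. Mir196a-2 (chr15:102973350-102973434, plus strand) is in an intron of 1 long Hoxc5 transcript, between Hoxc10 and Hoxc9. Mir196b (chr6:52230081-52230165, minus strand) lies within Hoxa9, in an exon outside the coding sequence for 2 of the 3 transcripts that span it. Mir10b (chr2:74726070-74726137, plus strand) is intronic in 2 Hoxd4 transcripts and 1 Hoxd3 transcript.

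**Figure D1:**
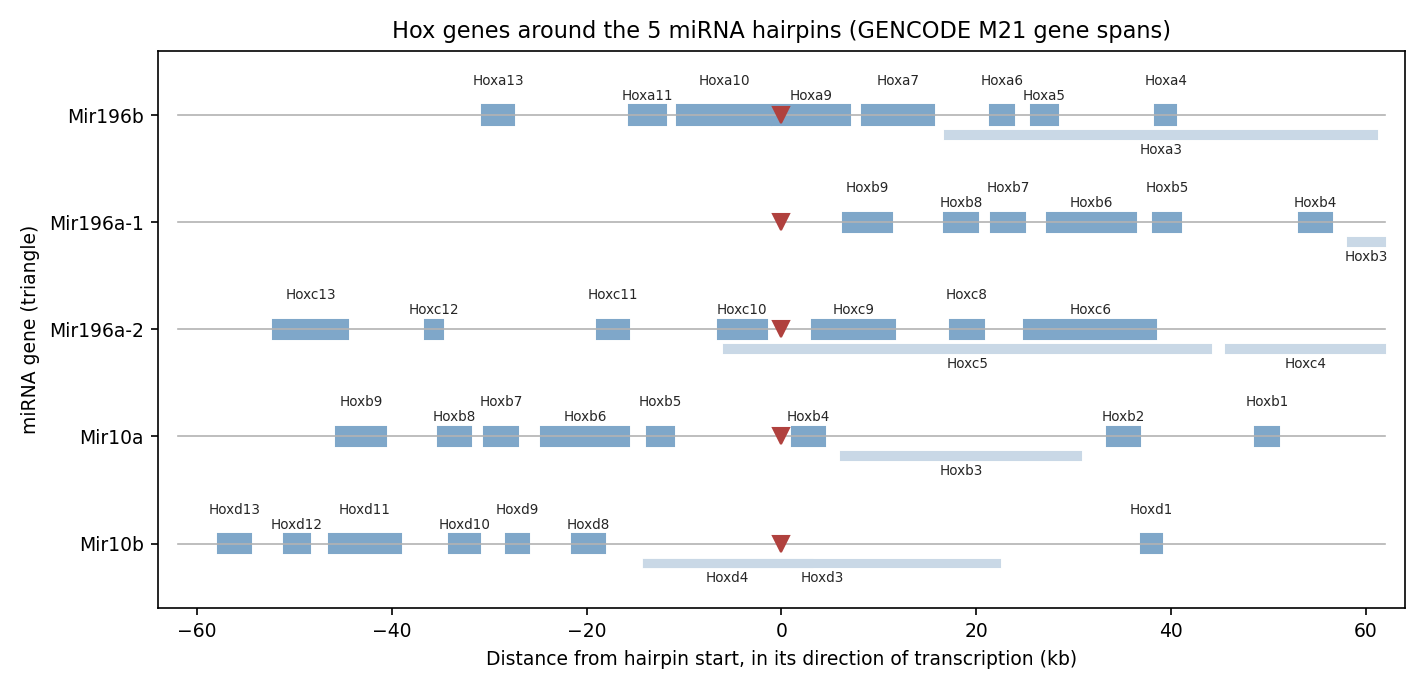
Hox genes around each of the 5 hairpins, drawn to scale as distance in kb from the hairpin's start in its direction of transcription; triangles mark hairpins, boxes gene spans, and thin pale bars gene spans over 14 kb. Mir10a and Mir196a-1 sit in the same HoxB cluster, 1.1 kb before Hoxb4 and 6.29 kb before Hoxb9.

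Values are the deposited scores, read as RPM (miRNA reads scaled to one common total in each library), and rested on 362483 to 541342 implied reads per library. A level is thus a share of the miRNA reads of its library. The markers of the labelled cell type were present: 6 of 6 miR-290 cluster miRNAs were present in every library, summing to 321010 RPM with Dox and 353821 RPM without it at day 0, and to 175473 and 123096 RPM at day 4. The 4 epiblast markers of the miR-302 cluster summed to 290 RPM with Dox and 335 RPM without it at day 0, and to 2044 and 29011 RPM at day 4. The level of Dgcr8 itself was not analysed here, since these libraries hold only small RNAs.

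miR-196 was higher with Dox on every day. miR-196a-5p stood at 948, 1006, 1032 and 879 RPM with Dox at days 0, 1, 2 and 4, and at 487, 665, 626 and 422 RPM without Dox. The lowest Dox library was above the highest no Dox library, so the treatments did not overlap. These levels placed it between rank 93 and rank 114 of all miRNAs with Dox, and between rank 116 and rank 160 without. miR-196b-5p, the copy that cannot be separated from it, stood at 853, 921, 978 and 831 RPM with Dox, and at 441, 627, 643 and 422 RPM without.

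The passenger strand of the HoxB hairpin moved the same way. miR-196a-1-3p stood at 148, 239, 223 and 155 RPM with Dox, and at 85, 120, 112 and 50 RPM without Dox, again with no overlap. Across all 839 miRNAs that passed the filter on low values, 1.31% had every Dox library above every no Dox library. The 3 miRNAs of miR-196 that did so come from near-identical copies and from 2 strands of 1 hairpin, so they are not 3 separate observations. The hairpin that carries both is printed here with its 5p and 3p strands in capitals.
Mir196a-1: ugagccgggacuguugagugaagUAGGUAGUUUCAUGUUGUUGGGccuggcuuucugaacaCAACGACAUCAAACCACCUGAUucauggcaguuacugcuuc

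**Figure D2:**
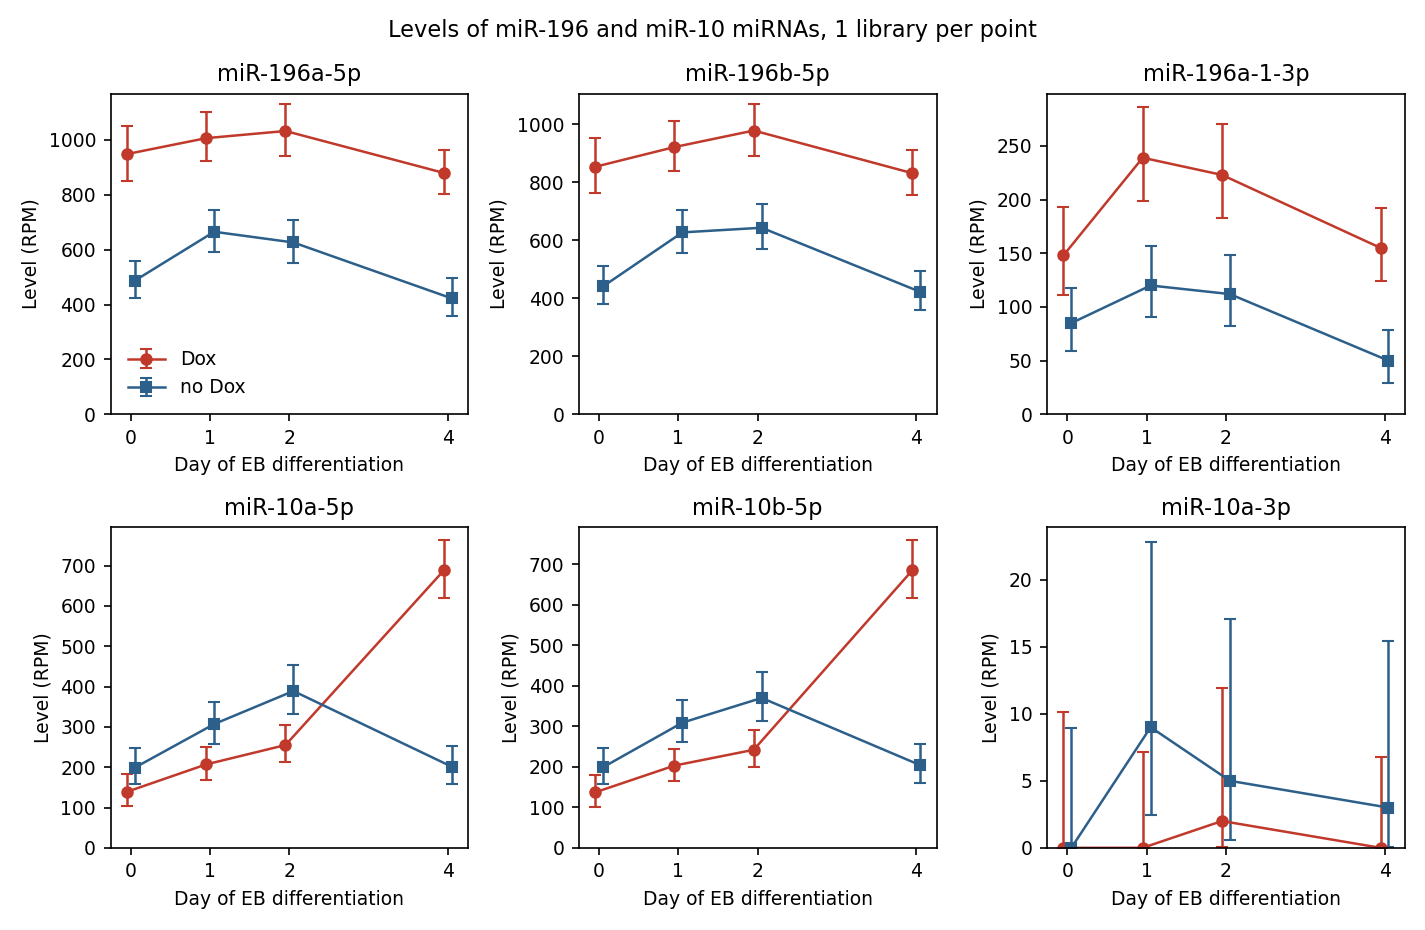
Level in RPM by day of EB differentiation for 6 of the 8 miRNAs, with Dox (circles) and no Dox (squares); each point is 1 library and bars are exact 95% counting intervals. miR-196a-5p and miR-196a-1-3p lie above no Dox on all 4 days, whereas miR-10a-5p with Dox lies below no Dox until day 2 and stands at 689 RPM against 201 RPM at day 4.

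On each day the Dox to no Dox ratio of miR-196a-5p was above 1 beyond counting error. It was 1.95 (95% counting interval 1.63 to 2.33) at day 0, 1.51 (1.31 to 1.75) at day 1, 1.65 (1.41 to 1.92) at day 2 and 2.08 (1.73 to 2.52) at day 4. For miR-196a-1-3p the ratio was 1.74 (1.12 to 2.74), 1.99 (1.44 to 2.8), 2 (1.41 to 2.89) and 3.12 (1.86 to 5.53). The intervals of day 0 and day 4 overlap for both miRNAs. Counting intervals cover the sampling of reads and not the spread between cultures, since there was 1 library per condition. Day 0, before differentiation, already showed the difference.

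Over the 4 days, with day as a factor, miR-196a-5p rose by 0.83 on the log2(RPM + 1) scale (SE 0.22, limma adjusted p = 0.0104), with the higher value in the Dox library on 4 of 4 days, as for 6.91% of all 839 miRNAs. miR-196b-5p rose by 0.77 (SE 0.22, limma adjusted p = 0.0251) and miR-196a-1-3p by 1.10 (SE 0.30, limma adjusted p = 0.0161). Of the 8 members 7 passed the low value filter, and 3 of these 7 were called higher and 0 lower, against 1.31% of all 839 miRNAs called higher and 0.596% called lower with Dox. The remaining spread of miR-196a-5p around the fit was 0.15, and the test used 0.305, so its SE is wider than its own libraries alone would give. limma took that spread from the trend over all miRNAs and treated it as known for all but 39 of the 839 miRNAs, so the p-values rest on this pooled spread and not on the 3 residual degrees of freedom of each miRNA. With the day 0, 1, 2 or 4 pair of libraries left out the log2 change of miR-196a-5p was 0.79, 0.91, 0.87 and 0.76, with limma adjusted p of 0.17, 0.0653, 0.247 and 0.0356. miR-196b-5p and miR-196a-1-3p passed with none of these pairs left out (lowest limma adjusted p = 0.0549). Without the robust option of limma 0 of the 3 passed (lowest limma adjusted p = 0.184), and without a day term 0 passed (lowest 0.941).

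**Figure D3:**
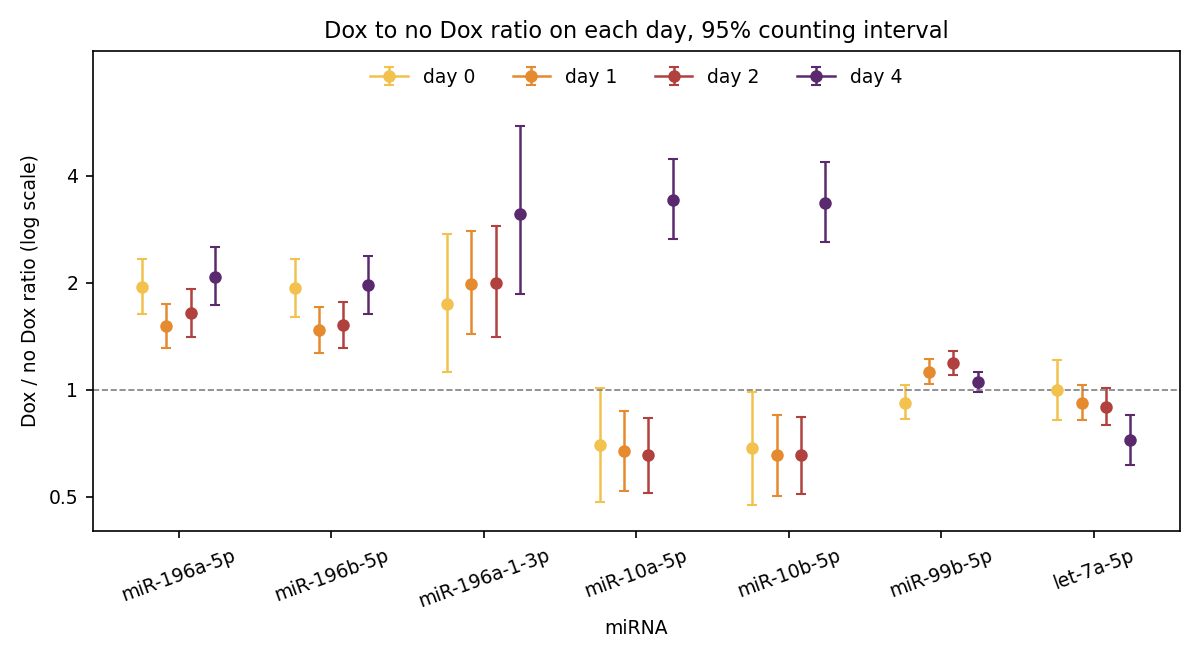
Dox to no Dox ratio (log scale) on days 0, 1, 2 and 4 for 5 of the 8 miRNAs and for the relatives miR-99b-5p and let-7a-5p; bars are exact conditional 95% counting intervals and the dashed line marks a ratio of 1. The ratio of miR-196a-5p ran from 1.51 to 2.08, while that of miR-10a-5p was between 0.656 and 0.701 through day 2 and 3.42 at day 4.

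Almost all miR-196 passenger reads came from the HoxB hairpin. Over the 8 libraries there were 521 reads of miR-196a-1-3p, against 3 of miR-196a-2-3p (HoxC) and 3 of miR-196b-3p (HoxA). miR-196a-2-3p was at 0 except for 4 RPM at day 4 with Dox and 2 RPM at day 0 without Dox. miR-196b-3p was at 0 except for 7 RPM, or 3 reads, at day 2 without Dox. With 3 reads taken as the limit, a count of 0 in a library allows between 5.54 and 8.28 RPM. Passenger strands survive to different degrees in different hairpins, so these counts do not give the share of miR-196a-5p that each locus made.

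The passenger share of the HoxB hairpin was higher with Dox on 3 of the 4 days. miR-196a-1-3p made up 13.5%, 19.2%, 17.8% and 15% of the summed reads of both strands with Dox at days 0, 1, 2 and 4, and 14.8%, 15.3%, 15.1% and 10.5% without Dox. The log2 ratio of 5p to 3p was lower with Dox by 0.262 on average, a change of -0.262 ± 0.309 (SD, n = 4 days), and it was lower on 3 of the 4 days. An exact two-sided sign-flip permutation test over the 4 days gave p = 0.25, adjusted to 0.5 over the 4 hairpins tested, and 0.125 is the smallest p that it can give. With 4 days the test cannot pass 0.05, so it does not show that arm usage was equal. The 5p reads counted with this hairpin may include those of Mir196a-2 and Mir196b.

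**Figure D4:**
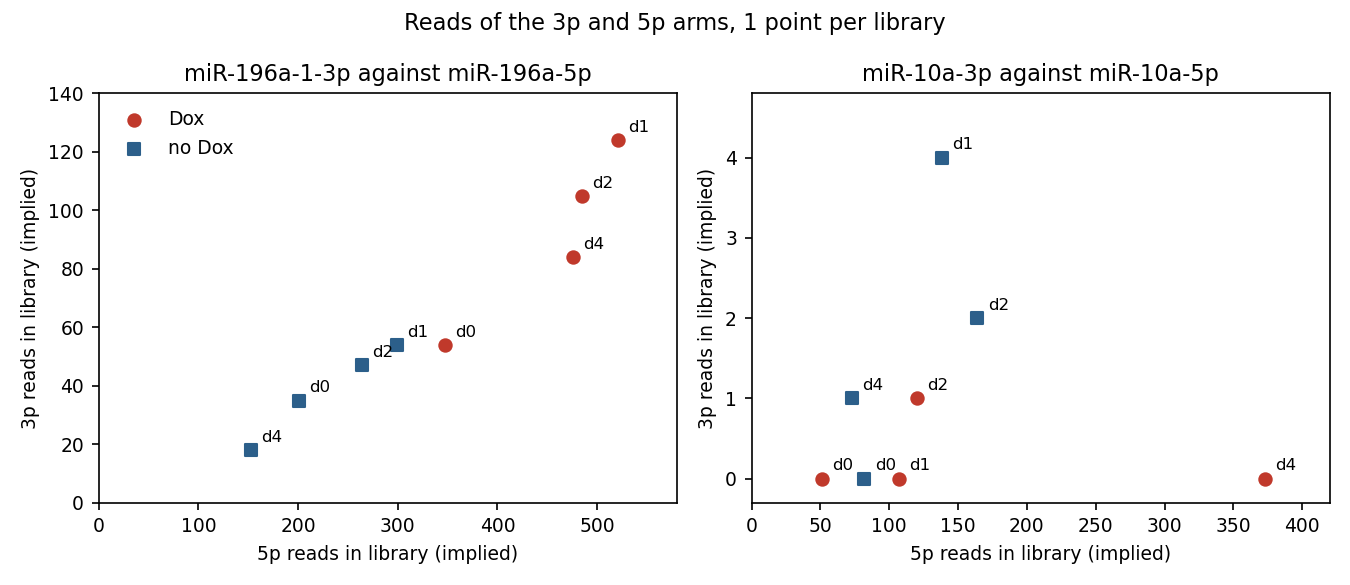
Implied reads of the 3p strand against those of the 5p strand, 1 point per library labelled by day, for miR-196a with the Mir196a-1 passenger (left) and for miR-10a (right); circles are Dox and squares no Dox. On each day both strands of miR-196 had more reads with Dox than without, while the 373 reads of miR-10a-5p at day 4 with Dox came with 0 reads of miR-10a-3p. Reads are not scaled to library totals, and totals were larger with Dox at days 1, 2 and 4 (541342 against 362483 at day 4).

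miR-10 followed another course. miR-10a-5p stood at 139, 207, 255 and 689 RPM with Dox at days 0, 1, 2 and 4, and at 199, 307, 389 and 201 RPM without Dox. It was thus lower with Dox on 3 days and higher on the last. miR-10b-5p, its inseparable copy, stood at 137, 203, 242 and 685 RPM with Dox, and at 199, 309, 370 and 204 RPM without Dox. The day 4 library with Dox held the highest value of either copy.

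The ratio of Dox to no Dox for miR-10a-5p was nearly the same on the first 3 days. It was 0.701 (95% counting interval 0.484 to 1.01) at day 0, 0.674 (0.518 to 0.873) at day 1 and 0.656 (0.514 to 0.835) at day 2. At day 4 it was 3.42 (2.66 to 4.46). The interval of day 4 does not overlap those of the earlier days. Among the 499 miRNAs that averaged at least 10 RPM, the Dox log2 ratio of miR-10a-5p ranked 408th, 441st and 402nd from the highest at days 0, 1 and 2 and 16th at day 4. By the same measure miR-196a-5p ranked 45th, 93rd, 56th and 49th.

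Fitted across days, the opposite signs gave a Dox log2 change of 0.02 for miR-10a-5p (SE 0.26, limma adjusted p = 1), higher with Dox on 1 of 4 days. Whether the Dox ratio changed with day was tested with the product of treatment and day. The Dox log2 ratio of miR-10a-5p rose by 0.59 per day (SE 0.16, limma adjusted p = 0.0367), and that of miR-10b-5p by 0.59 (SE 0.16, limma adjusted p = 0.0367). These were 2 of the 7 members tested, with 0 falling, against 0.238% of all 839 miRNAs called rising and 0.715% called falling. The miRNAs called rising were these copies alone, which are 1 signal. Scaled by reads other than those of the miR-290 cluster, 6 miRNAs were called rising and 5 falling, against 2 and 6 here. Epiblast markers moved beside this: 3 of 4 fell in the same test, among them miR-302b-3p, with 914 RPM in Dox and 12939 RPM in no Dox libraries at day 4. Their part in the result was not tested. miR-196a-5p had a slope of 0.05 per day (SE 0.14, adjusted p = 0.939) and miR-196a-1-3p one of 0.20 (SE 0.19, adjusted p = 0.751). A straight line is a poor summary of a ratio that was level for 3 days: the remaining spread of miR-10a-5p was 0.512, where the test used 0.34. Without the robust option of limma its adjusted p was 0.495. Without the day 4 pair the slope was -0.05 (limma adjusted p = 1), so the call rests on those 2 libraries. Without the day 1 pair it was 0.57 (limma adjusted p = 0.14), without the day 2 pair 0.62 (0.587) and without the day 0 pair 0.84 (0.0164).

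**Figure D5:**
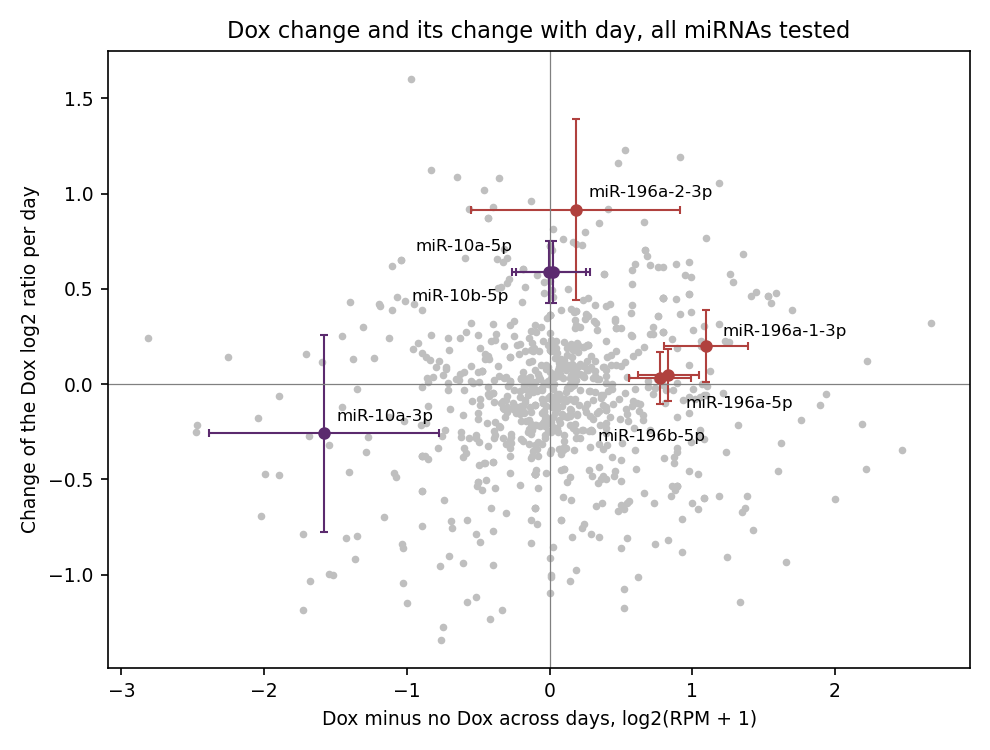
Log2 change with Dox across the 4 days (horizontal) against the change of the Dox log2 ratio per day (vertical) for all 839 miRNAs tested; labelled points are 7 members with bars of 1 SE, miR-196 in red and miR-10 in purple. The miR-196 miRNAs that passed lie to the right at 0.03 to 0.20 per day, and miR-10a-5p and miR-10b-5p lie at 0.59 per day near 0 on the horizontal axis.

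No reads of miR-10a-3p, the passenger of Mir10a, accompanied the high day 4 value of miR-10 with Dox. miR-10a-3p had 0, 0, 1 and 0 reads with Dox at days 0, 1, 2 and 4, against 0, 4, 2 and 1 reads without Dox. Beside them stood 51, 107, 120 and 373 reads of miR-10a-5p with Dox, and 82, 138, 164 and 73 reads without Dox. At day 4 with Dox, 0 reads allow up to 5.54 RPM of miR-10a-3p. In all, miR-10a-3p had 1 read with Dox and 7 without, too few to set a ratio, and its log2 change of -1.58 (SE 0.80, adjusted p = 0.476) depends on the pseudocount. The hairpin is printed with its 5p and 3p strands in capitals.
Mir10a: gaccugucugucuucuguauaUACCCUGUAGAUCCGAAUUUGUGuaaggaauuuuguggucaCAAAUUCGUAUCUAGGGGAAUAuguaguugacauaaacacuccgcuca

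Within each treatment, the course of miR-10 and miR-196 over the days was set against day 0. With Dox, miR-10a-5p was 1.83-fold its day 0 level at day 2 (95% counting interval 1.31 to 2.59) and 4.94-fold at day 4 (3.68 to 6.76). Without Dox it was 1.96-fold its day 0 level at day 2 (1.49 to 2.58) and 1.01-fold at day 4 (0.729 to 1.41). Day 4 over day 2 was 2.7-fold (2.19 to 3.34) with Dox and 0.518-fold (0.387 to 0.686) without Dox. The day 2 intervals of the treatments overlap, and those of day 4 over day 0 do not. miR-196a-5p with Dox was 1.06-fold its day 0 level at day 1 (0.924 to 1.22) and 0.927-fold at day 4 (0.806 to 1.07). Without Dox it was 1.36-fold (1.14 to 1.64) at day 1, 1.29-fold (1.07 to 1.55) at day 2 and 0.866-fold (0.697 to 1.07) at day 4. Its day 4 over day 2 ratio was 0.852 (0.75 to 0.969) with Dox and 0.674 (0.549 to 0.826) without Dox. Without Dox both miRNAs were thus above day 0 at day 2 and lower again at day 4, with overlapping intervals, and with Dox their day 4 intervals do not overlap.

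Day 4 was tested against day 0 with both treatments in the fit. miR-10a-5p rose by 1.16 (SE 0.37, limma adjusted p = 0.00971) and miR-10b-5p by 1.17 (SE 0.37, limma adjusted p = 0.00865). The remaining spread of miR-10a-5p in this fit was 0.826, where the test used 0.366, so its SE is narrower than its own libraries would give. Without the robust option of limma the SE was 0.57 and the adjusted p 0.22. The copies were 2 of 7 members called higher, with 0 lower, against 21.9% of all 839 miRNAs called higher and 3.81% called lower. The median log2 change over all miRNAs tested was 0.37, 0.48 and 0.56 at days 1, 2 and 4. With a scaling that brings the typical miRNA to no change (median of ratios) the change of miR-10a-5p was 0.56 (limma adjusted p = 0.306), and 101 miRNAs were called higher and 61 lower, against 184 and 32. The day 4 change of miR-10a-5p was 2.30 in the Dox libraries alone and 0.01 in the no Dox libraries alone, so the call rests on the Dox library of day 4. miR-196a-5p had a change of -0.16 (SE 0.30, adjusted p = 0.782). At day 1, 0 of 7 members passed in limma, 0 had an unadjusted p under 0.05 and 0 passed with limma-voom, while 7.03% of all miRNAs were called higher and 1.07% lower. At day 2, 0 of 7 passed in limma and in limma-voom and 2 had an unadjusted p under 0.05, while 15.3% were called higher and 2.03% lower. Under median-of-ratios scaling the split of all calls was 35 higher and 34 lower at day 1, against 59 and 9, and 51 and 51 at day 2, against 128 and 17. The largest early change was that of miR-10a-5p at day 2, at 0.92 (SE 0.37, adjusted p = 0.0682), besides miR-10a-3p, which rested on at most 4 reads in a library.

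miR-196a-5p had more reads than miR-10a-5p in all 8 libraries, by a margin that varied. It had 6.8, 4.87, 4.04 and 1.28 times the reads of miR-10a-5p with Dox at days 0, 1, 2 and 4, and 2.45, 2.17, 1.61 and 2.1 times without Dox. miR-196a-1-3p lay near miR-10a-5p in the Dox libraries of day 0 (148 and 139 RPM), day 1 (239 and 207) and day 2 (223 and 255), with overlapping counting intervals, and below it in the others. Levels of different miRNAs also carry differences in how well each is ligated and copied into a library, so this order concerns reads.

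Of the other Hox miRNAs, miR-615-3p, made within the HoxC cluster, had at most 1 read in a library, and miR-615-5p was not analysed here. Of the miR-99 and miR-100 relatives 4 of 6 were tested, and 0 passed for Dox or for its change with day. miR-99b-5p stood at 1662, 2715, 3265 and 4768 RPM with Dox, and at 1803, 2419, 2738 and 4538 RPM without Dox. At day 4 it rose by 1.43 over day 0 (SE 0.27, limma adjusted p = 1.74e-06), as did miR-99b-3p by 1.37 (SE 0.36, limma adjusted p = 0.00129). miR-99a-5p stood at 44, 39, 15 and 109 RPM with Dox, and at 32, 11, 12 and 63 RPM without Dox, the higher value being with Dox on each day and the highest in the Dox library of day 4. Its Dox log2 change of 0.82 (SE 0.41, limma adjusted p = 0.474) was close in size to that of miR-196a-5p and did not pass, at 5 to 59 reads in a library. The near-identical miR-100-5p had a change of 0.74 (SE 0.41, limma adjusted p = 0.551). let-7a-5p had Dox to no Dox ratios of 0.998, 0.921, 0.895 and 0.722. Whether these relatives differ from miR-10 and miR-196 in their Dox change was not tested.

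Marker miRNAs of other cells moved beside these results. The 9 fibroblast or feeder markers analysed, of 10 chosen, were above 0 in all libraries and summed to 19526, 26364, 32945 and 57778 RPM with Dox, and to 13744, 26640, 24825 and 39971 RPM without Dox. Most of that sum was miR-21a-5p, and 0 of the 9 passed for Dox (median log2 change -0.20, against 0.03 over all miRNAs). The 5 endoderm markers summed to 985, 895, 591 and 639 RPM with Dox, and to 801, 617, 282 and 483 RPM without Dox. That sum was higher with Dox on each day, as miR-196 was, and 0 of 5 passed. Most of it was miR-192-5p and miR-194-5p. By contrast, miR-375-3p was lower with Dox on each day, at 11, 10, 15 and 33 RPM against 12, 22, 26 and 61 RPM. Of the 5, miR-122-5p, the liver-specific miRNA, was at most 4 RPM. The 5 neural markers summed to 3379, 4772, 5596 and 5785 RPM with Dox, and to 3876, 5776, 7822 and 7977 RPM without Dox. That sum was lower with Dox on each day, and 0 of 5 passed. Most of it was miR-9-5p. By contrast, miR-128-3p was higher with Dox at days 0, 1 and 2 (312, 659 and 649 RPM against 189, 536 and 380 RPM). At day 4 it was lower (482 against 513 RPM). The 6 blood and endothelial markers analysed, of 7, summed to between 1192 and 2014 RPM with Dox, and to between 1140 and 2083 RPM without Dox. The 2 muscle markers analysed, of 3, reached 53 RPM with Dox and 130 RPM without Dox, both at day 4. Over the 7 lists 0 markers passed for Dox. The part of these cells in the levels of miR-10 and miR-196 was not tested.

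The miRNAs with the most similar pattern were named by their correlation over the 8 libraries, among 494 others that averaged at least 10 RPM. The libraries share the split by treatment and by day, and the correlations are descriptions. For miR-196a-5p they were miR-582-3p (Pearson's r = 0.93), miR-582-5p (0.83) and miR-466f-5p (0.81). miR-582-3p stood at 336, 545, 517 and 567 RPM with Dox, and at 177, 225, 294 and 149 RPM without Dox, with no overlap. For miR-196a-1-3p they were miR-582-3p (0.92), miR-22-3p (0.90) and miR-350-5p (0.88). miR-22-3p stood at 2195, 4316, 3312 and 2147 RPM with Dox, and at 2148, 2583, 1900 and 1266 RPM without Dox. It is in the fibroblast or feeder list, where miR-199a-3p went the other way on each day. For miR-10a-5p they were miR-297b-3p and miR-297c-3p, which had equal values, and miR-467e-3p (0.84 each). miR-297b-3p stood at 25, 48, 32 and 159 RPM with Dox, and at 34, 42, 38 and 39 RPM without Dox, so that it too was highest in the Dox library of day 4.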

How the data were processed

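Small RNA libraries of the KH2-DGCR8 line were analysed, 1 per condition, with groups taken from the sample labels. The deposited values are scores: whole numbers, with library totals of 999965 to 1000047, as RPM rounded by the authors would give. Bowtie and mm10 are named in the submitters' processing notes. Neither the counter, nor its annotation of miRNAs, nor its treatment of shared reads was given in the sources used here. Some miRNAs were not analysed here, and 1 row naming no miRNA was left out.

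For each library, 1 read total between 100000 and 660000 put every value within 0.5 RPM of a whole read. Those implied reads gave exact conditional binomial intervals at 95% and the level that 0 reads allow (3 reads), which cover counting error only. PCR copies are not independent molecules.

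The design foresaw normalized values, so limma 3.58.1 (R 4.3.3) was run on log2(RPM + 1) over the 839 miRNAs with at least 1 RPM in at least 2 libraries. It used a mean-variance trend, robust prior variance and Benjamini-Hochberg adjustment at 0.05. The model held day as a factor and treatment, leaving 3 residual degrees of freedom. The change of the Dox ratio with day added their product, leaving 2. Fold changes of low miRNAs are understated. No condition was repeated, so days served as the repeats of the Dox contrast, and the treatments as those of each day contrast. The spread behind these p-values is thus that of the Dox ratio between days, real changes with day included. In the test of change with day it is the spread around the straight line. Whether libraries came from separate cultures is not stated, so the spread between cultures may not be covered. Fits were tested on simulated data. Python 3.11.15 and SciPy 1.17.1 were used elsewhere. Named miRNAs were the members, miR-615, the miR-99 and miR-100 relatives, let-7a-5p, and the 3 most correlated miRNAs of each abundant member. The members and lists were chosen with earlier results of these data known.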

Additional observations from a re-analysis of the deposited data

Results flagged for a closer look

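The Dox effect on miR-10 was called different between days by the test of that difference itself, but not under every setting. The Dox log2 ratio of miR-10a-5p changed by 0.59 per day and that of its inseparable copy miR-10b-5p by 0.589 per day (SE 0.16 each, limma adjusted p = 0.0367 for both). The ratio was below 1 on 3 of 4 days and 3.42 at day 4, and without the day 4 pair of libraries the slope of miR-10a-5p was -0.05 per day. Its limma adjusted p was 0.495 without the robust option and 0.0576 without a filter.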

How the results depend on the processing

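The Dox rise of miR-196a-5p, miR-196b-5p and miR-196a-1-3p kept its direction under all alternatives run, with log2 changes from 0.70 to 1.2. The number of members called for Dox was 3, and 0 without the robust option or without a day term. It was 0 to 1 with 1 day's pair left out. With reads of copies counted once, an alternative chosen after seeing the data, it was 2. For the change of the Dox ratio with day the number was 2, and 0 without a filter, without the robust option, or with days 2 and 4 set against days 0 and 1. With 1 day's pair left out it was 0 to 2. For day 4 against day 0 the number was 2, and 0 without the robust option, with median-of-ratios scaling, or with miR-290 cluster reads left out of the scaling. Over all 839 miRNAs the Dox comparison called 16, against 0 without the robust option (71 at an unadjusted p under 0.05) or the day term (25), and 1 to 10 with a day left out. The change with day called 8, against 0 without the robust option (81) or with days 2 and 4 against days 0 and 1 (38), 0 to 12 with a day left out, and 5 without a filter. Without the robust option day 1 called 13 against 68, and day 2 called 72 against 145. The causes were not tested.

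Signs turned where the change was near 0 and also where it was larger, as for the called slopes of miR-10a-5p and miR-10b-5p. For Dox, miR-10a-5p became -0.0016 with median-of-ratios scaling and -0.563 without the day 4 pair. miR-10b-5p (-0.0017) became 0.000964 with a pseudocount of 5, 0.0711 with limma-voom, and 0.176, 0.199 and 0.201 without the day 0, 1 or 2 pair. miR-196a-2-3p became -0.00939 with limma-voom and -0.528 without the day 4 pair. Without the day 4 pair the slope went from 0.59 to -0.0464 for miR-10a-5p and from 0.589 to -0.0376 for miR-10b-5p. It became -0.12 for miR-196a-5p and -0.173 for miR-196b-5p. The slope of miR-10a-3p became 0.306 without the day 0 pair and 0.161 with days 2 and 4 against days 0 and 1. With median-of-ratios scaling, miR-196a-5p became -0.109 at day 1 and -0.233 at day 2, and miR-196b-5p -0.0673 and -0.105. The arm ratio of Mir196a-1 kept its sign. The 3p members other than miR-196a-1-3p had at most 4 reads in a library, which sets the precision of their values. Libraries could be paired by day only, because each group has 1 library and all carry the same replicate number. The day term of the model and the sign-flip test of the arms compare treatments within a day.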
